A study of Mus musculus with 9 samples.

Results

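Umod, Slc12a1, Kcnj1, Bsnd, Slc12a3, Egf, Calb1 and Trpm6 are 8 genes known for the thick ascending limb of the loop of Henle and the distal convoluted tubule of the kidney. They were followed here in postnatal day 3 (PND3) RNA that the labels call pancreas. The 8 genes were found by name among the non-control probes of the PND3 arrays, which gave 10 probes, and every such probe is described. All 8 genes had a measured probe, among 20922 measured genes in all.

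The series asked how gene expression differs between wild-type (WT) mice and mice homozygous for a mutated Glis3 allele, written Glis3zf/zf, on the C57BL/6 strain. Glis3 encodes a zinc finger transcription factor, and its loss is known for neonatal diabetes and for cystic kidneys. The WT group at PND3 was RNA from 2 pups, pooled, and the Glis3zf/zf group was RNA from 2 mutant pups, pooled. The labels name no treatment, and 500 ng of RNA per labelling was amplified and coupled to Cy3 or Cy5. Agilent 2-colour arrays were used, and each of 2 arrays received both pools, with the dyes swapped between arrays. The Cy3 array below is the array that carried mutant RNA in Cy3, and the Cy5 array is the array that carried it in Cy5. The arrays are therefore a technical pair measuring 1 pool per genotype. Their spread is that of labelling and hybridisation, not of pups, and no p-value is given. The other 7 of the 9 samples, taken at E15.5, were not used here.

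In the thick ascending limb, salt is reabsorbed without water. The Na-K-2Cl cotransporter brings salt in from the lumen, a potassium channel returns potassium to the lumen, and chloride leaves the cell through basolateral channels. The distal convoluted tubule takes up further salt through the thiazide-sensitive cotransporter, and it is the site where the excretion of magnesium and calcium is adjusted. Uromodulin, made in the thick limb, is the most abundant protein of normal urine.

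Each probe is a 60-base oligonucleotide printed on the array. The first 30 bases are shown, 5′ to 3′ as the scanner files give them, for the probes on which the results turn: the brightest member, both pairs of probes where 1 gene had a measured probe and a probe near background, and both probes printed 10 times per array. All letters are in lower case, since no part is marked.
Umod: aaacaagttggcatctttcagtgctgttct
Slc12a1, transcript variant 2: ctgctagctggaggtatattaggtaggtga
Slc12a1, transcript variant 1: ggagaccaactaaaagtgataaatattctt
Calb1: tatgtctgattctatgcctatatttccaag
Egf: ataaatgatgtgatctacatagaagtctta
Trpm6, from NM_153417: aggggagttccggaaatacaataacaacaa
Trpm6, from AK080899: tttcatcacattttagcaatttcacttaaa
The Slc12a1 probes share a gene but were designed on different transcript variants. Over its whole length the probe for variant 2 has 45% G and C and the probe for variant 1 has 35%. The Trpm6 probes have 43.3% and 35%. No member probe shared an exact run longer than 15 of its 60 bases with any probe of another gene on the array. That longest run was found for Kcnj1, and for Umod the longest run was 12 bases. The probes were not placed on a genome here, so their exons are not given.

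The RNA was checked against lists of markers, which were chosen with earlier results of these data known. All 8 proximal tubule markers exceeded a scanner signal of 1000 in both pools, as did 7 of 8 collecting duct and 5 of 6 podocyte markers. This level was picked once the signals were known. None of 8 islet markers or of the 9 acinar markers with a probe did: Ins2, an insulin gene, stood at 89.1 in mutant and 88.9 in WT RNA, Iapp at 46.2 and 47.2, and the acinar genes Ctrb1 at 693.1 and 640.5 and Cpb1 at 415.1 and 510. Among kidney markers the proximal tubule genes Miox and Lrp2 read 86660 and 37840 in mutant RNA and 122800 and 41910 in WT RNA. The collecting duct water channels Aqp3 and Aqp2 read 21440 and 19430 in mutant and 21690 and 13830 in WT RNA, and the podocyte factor Wt1 read 4028 in mutant and 3977 in WT RNA. The defining markers of pancreas were thus dim in RNA labelled pancreas and those of kidney were bright in both pools. Signals are the scanner software's background-subtracted, dye-normalized intensities, averaged over both arrays. Apart from this coarse check of the tissue they are compared within a probe, since a probe's signal also depends on its sequence and does not give a gene's amount relative to other genes. Markers of other tissues differed between the pools: the summed signal of 5 ovary markers was 382.2 in mutant and 2534 in WT RNA, led by Padi6 (74.3 and 736) and Gdf9 (161.8 and 622.2). All 5 fat markers were lower in mutant RNA, with sums of 58960 and 69990 dominated by Fabp4 (55790 and 63510), followed by Cidea (1271 and 2500). The median signal of the 5 fat markers, which Fabp4 does not set, was 736.9 in mutant and 1771 in WT RNA. Of the 4 adrenal markers with a probe 2 were lower in mutant signal, Hsd3b1 at 88.0 and 163.2 and Star at 32.3 and 39.1, and the list summed to 157.3 and 235.2, a difference carried by Hsd3b1. Their part in the members' values was not tested. The Glis3 probe read 3.88 in mutant and 22.1 in WT RNA on the Cy3 array, and 3.39 and 21.5 on the Cy5 array. It was well above background in WT RNA alone. Its place relative to the mutated exons was not known here. Per array and channel, 72.8% to 76.6% of 43379 spots were well above background, none was saturated, and 18 and 26 outlier spots were left out of the ratios. The marker signals above kept such spots, and 7 of the 8 proximal tubule markers had a measured ratio.

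The mutant signal of the measured probes was 87.1% to 112.2% of WT for 7 of the 8 thick limb and distal tubule genes, and 163.4% for Trpm6, the dimmest of them. Genes were counted at a ratio of 2 to 1 and at a smaller ratio of 5 to 4 (0.32 on the log2 scale), reached with the same sign by each array. None of the 8 members reached either level. Among all measured genes 0.191% reached the ratio of 2 to 1 and 4.78% that of 5 to 4, so a count of 0 of 8 is near the background at both. Slc12a1 and Kcnj1 were lower in mutant RNA on both arrays, while Bsnd, Egf, Calb1 and Trpm6 were higher. Umod and Slc12a3 had opposite signs on the arrays. Over all measured genes 37.9% were lower on both arrays, 30.8% higher on both, and 31.3% had opposite signs. The median log2 ratio of mutant over WT was 0.02 over the members and -0.01 over all measured genes. These ratios come from intensities normalized within each array by a loess curve, which removes the trend of the ratio with brightness. In bulk RNA, fewer cells of a type and less RNA per cell cannot be told apart.

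**Figure D1:**
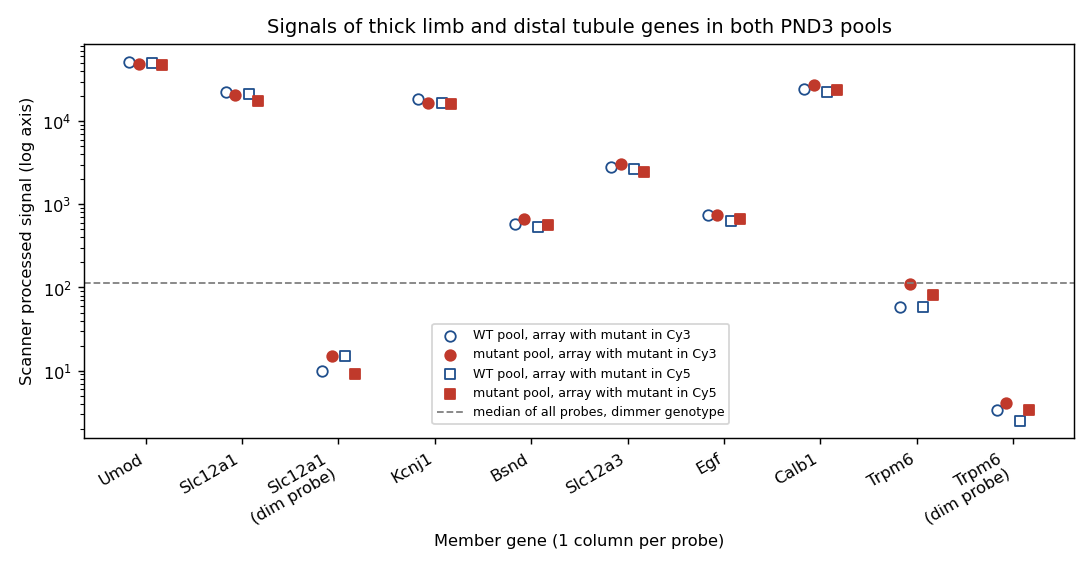
Scanner processed signal (log axis) of each of the 10 member probes in WT (open) and mutant (filled) RNA, with circles for the Cy3 array, squares for the Cy5 array and a dashed line at the median of all probes (113.3, dimmer genotype). The 4 readings lie close together for each measured probe except that of Trpm6, where both mutant readings (109 and 81.9) lie above both WT readings (59.0 and 57.8).

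Umod encodes uromodulin, the glycoprotein of the thick limb. Its probe read 48990 in mutant and 51620 in WT RNA on the Cy3 array, and 46760 and 50220 on the Cy5 array. Both WT readings were above both mutant readings, with mutant signal at 94.0% of WT. The loess log2 ratio was -0.20 on the Cy3 array and 0.02 on the Cy5 array, with a mean of -0.09 (1.06-fold). With loess the arrays were 0.21 apart, against a median gap of 0.11 between arrays over all measured genes. The difference was thus smaller than the spread between the arrays under loess. The scanner software's ratios were below 0 on both arrays, at -0.08 and -0.10, so the opposite signs rest on the normalization. The spot exceeded the range of the main scan in both channels of both arrays, and the scanner had scaled it up from a scan at lower gain.

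Slc12a1 encodes the Na-K-2Cl cotransporter of the thick limb, the target of loop diuretics. The probe for transcript variant 2 read 20480 in mutant and 22190 in WT RNA on the Cy3 array, and 17590 and 21500 on the Cy5 array. Every mutant reading was below every WT reading, and mutant signal was 87.1% of WT. The loess log2 ratios were -0.14 and -0.26, with a mean of -0.20 (1.15-fold), the lowest of the members, and the arrays were 0.12 apart. Among all measured genes this mean lay at the 12.2nd percentile. The probe for transcript variant 1 was near background: 15.2 in mutant and 9.96 in WT RNA on the Cy3 array, and 9.17 and 15.1 on the Cy5 array. It was well above background in WT RNA of the Cy5 array alone, the order of the pools turned between the arrays, and no fold is given for it.

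Kcnj1 encodes the potassium channel ROMK, which recycles potassium into the lumen of the thick limb. Its probe read 16730 in mutant and 18430 in WT RNA on the Cy3 array, and 15980 and 16370 on the Cy5 array. The ranges of the pools overlapped, since the mutant reading on the Cy3 array lay above the WT reading on the Cy5 array. Within each array the mutant channel was the lower, and the loess log2 ratios were -0.05 and -0.11, with a mean of -0.08 (1.06-fold). For Slc12a1 and Kcnj1 the WT channel alone had been scaled up from the scan at lower gain, on both arrays, so the channels of these spots were read at different gains. Its part in their ratios was not tested.

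Bsnd encodes barttin, an accessory subunit of the basolateral chloride channels of the thick limb and distal tubule. Its probe read 673.9 in mutant and 573.3 in WT RNA on the Cy3 array, and 565.2 and 531.1 on the Cy5 array. Mutant signal was above WT on each array, although the mutant reading of the Cy5 array was below the WT reading of the Cy3 array. The loess log2 ratios were 0.23 and 0.03, with a mean of 0.13 (1.09-fold). With centring on the median the mean was -0.01, so its sign rests on the normalization. Set against the median of all measured genes, Bsnd stood at 0.10 with median centring and 0.14 with loess.

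Slc12a3 encodes the thiazide-sensitive Na-Cl cotransporter, the defining transporter of the distal convoluted tubule. Its probe read 3039 in mutant and 2785 in WT RNA on the Cy3 array, and 2469 and 2638 on the Cy5 array. The order of the pools turned with the dyes. The loess log2 ratios were 0.15 and -0.14, with a mean of 0.01, and the gap of 0.29 between the arrays was the largest among the members.

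Egf, the precursor of epidermal growth factor, is made in the distal tubule and acts on magnesium uptake there. Its probe was printed 10 times per array, which gives the spread between spots of an array. The mean signals were 744.7 in mutant and 746.1 in WT RNA on the Cy3 array, and 669.3 and 633.7 on the Cy5 array. The loess log2 ratio was 0.03 ± 0.06 (SD over 10 spots) on the Cy3 array and 0.03 ± 0.04 (SD over 10 spots) on the Cy5 array. Spots ran from -0.08 to 0.09 and from -0.06 to 0.09, with 7 and 9 of 10 above 0. With loess Egf was the member whose arrays lay closest together, and its mean of 0.03 (1.02-fold) was smaller than the SD between spots. With median centring its arrays stood further apart, at -0.06 and -0.18.

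Calb1 encodes calbindin, a calcium-buffering protein of the distal tubule. Its probe was also printed 10 times, and its mean signals were 27120 in mutant and 24200 in WT RNA on the Cy3 array, and 23520 and 22640 on the Cy5 array. The loess log2 ratio was 0.14 ± 0.07 (SD over 10 spots) and 0.07 ± 0.05 (SD over 10 spots), a mean of 0.11 (1.08-fold). All 10 spots of the Cy3 array and 9 of 10 of the Cy5 array were above 0, ranging from 0.06 to 0.24 and from -0.00 to 0.12. Spots of an array share 1 hybridisation and are not replicates of the genotype. The WT channel was scaled up from the lower gain on all 10 spots of each array, the mutant channel on 6 and 4. Spots with both channels scaled up had a mean ratio of 0.12 and spots with 1 channel scaled up 0.09, so both kinds were above 0. With centring on the median, however, the Calb1 ratio was -0.16 and its direction turned.

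**Figure D2:**
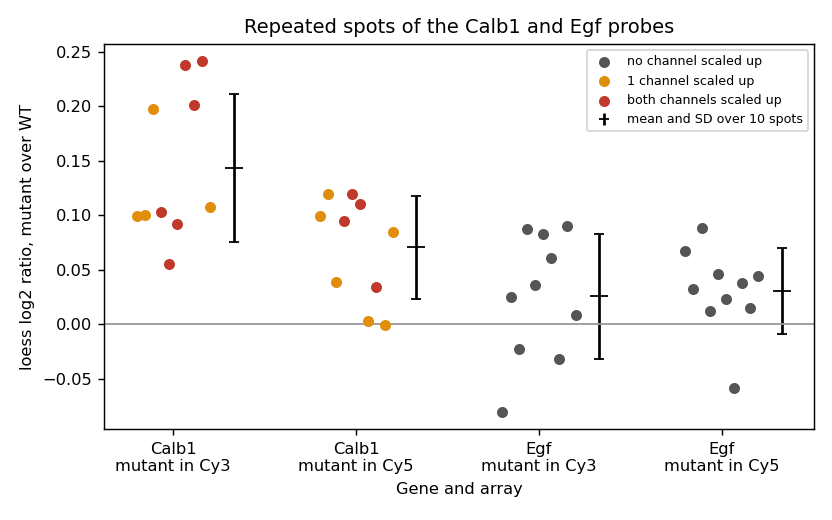
Loess log2 ratio of mutant over WT (vertical axis) for each of the 10 spots of the Calb1 and Egf probes on both arrays, coloured by how many channels were scaled up from the scan at lower gain; black marks are the mean and SD over spots. All Calb1 spots but 1 lie above 0, and Egf spots lie on both sides of 0.

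Trpm6 encodes the magnesium channel of the distal convoluted tubule. Its probe from NM_153417 read 109 in mutant and 59.0 in WT RNA on the Cy3 array, and 81.9 and 57.8 on the Cy5 array. Both mutant readings were above both WT readings, and the scanner signal of mutant RNA was 163.4% of WT. The loess log2 ratios were 0.42 and 0.22, with a mean of 0.32, the highest of the members and at the 96.5th percentile of all measured genes. The Cy5 array did not reach the ratio of 5 to 4, so the gene was not counted at that level. The size depended on how background was handled in this dim probe. The scanner software's own log2 ratios were 0.89 and 0.50, with a mean of 0.69 (1.62-fold), and with an offset of 0 the mean was 0.56, since the offset of 50 added before the logarithm draws ratios of dim probes toward 0. The other Trpm6 probe, from AK080899, was not well above background in either pool on either array, at 4.12 in mutant and 3.37 in WT RNA on the Cy3 array and 3.37 and 2.51 on the Cy5 array, and gives no second reading.

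The bright members were also read with each array centred on its median in place of loess. All 4 bright members were then lower in mutant RNA: Umod at -0.38 (-0.63 on the Cy3 array and -0.12 on the Cy5 array), Slc12a1 at -0.46 (-0.46 on both), Kcnj1 at -0.34 (-0.35 and -0.32) and Calb1 at -0.16 (-0.19 and -0.12). Slc12a1 was the only member past the ratio of 5 to 4 on both arrays under this centring, where 10.4% of all measured genes were. Before any normalization the Umod ratio stood at -0.79 and -0.55, and loess had removed -0.60 and -0.57 of it. For Slc12a1 loess removed -0.49 and -0.63, for Kcnj1 -0.47 and -0.64, and for Calb1 -0.51 and -0.62.

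Other bright genes shifted in the same way. Among the 1007 genes at least as bright as the fourth brightest member, the median log2 ratio was -0.29 with median centring and -0.01 with loess, and 74.3% were lower on both arrays with median centring against 26.7% with loess. Over all measured genes the median was -0.11 with median centring, and 54.4% were lower on both arrays. Set against the median of these 1007 genes, the median-centred ratios were -0.09 for Umod, -0.18 for Slc12a1, -0.05 for Kcnj1 and 0.13 for Calb1. On the Cy3 array alone Umod was the lowest of the 4, at -0.23, and Slc12a1 stood at -0.06. On the Cy5 array Slc12a1 was the lowest, at -0.32, and Umod stood at 0.02.

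**Figure D3:**
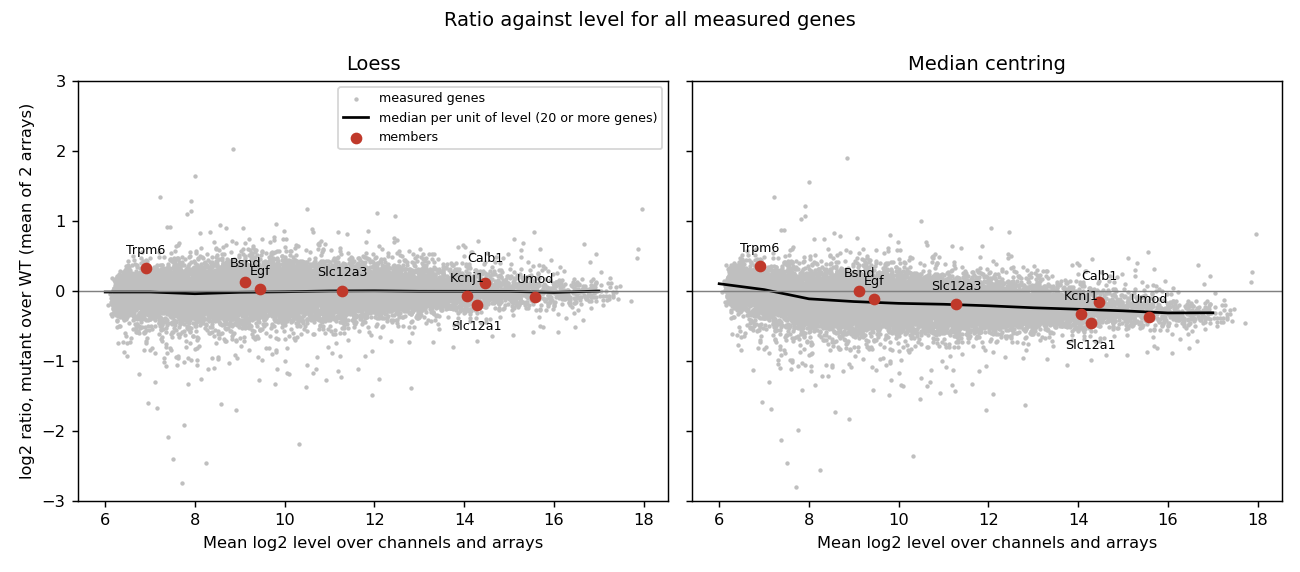
Log2 ratio of mutant over WT (mean of 2 arrays) against the mean log2 level over channels and arrays for all measured genes (grey), with the members in red and the median per unit of level as a line, after loess and after median centring. The line lies near 0 after loess and slopes below 0 with brightness after median centring, and the bright members lie around it in both panels.

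The dimmer members differed less between the normalizations. With median centring Bsnd was at -0.01 (0.15 on the Cy3 array and -0.17 on the Cy5 array), Slc12a3 at -0.19 (0.02 and -0.40), Egf at -0.12 and Trpm6 at 0.35 (0.43 and 0.27). Egf was thus slightly below 0 under this centring and slightly above it with loess. Trpm6 stayed above 0 on each array, while Bsnd and Slc12a3 had opposite signs on the arrays. The scanner software's ratios were -0.09 for Umod, -0.20 for Slc12a1, -0.09 for Kcnj1, 0.16 for Bsnd, 0.02 for Slc12a3, 0.04 for Egf and 0.11 for Calb1, each near its loess mean. Trpm6, described above, was the exception.

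**Figure D4:**
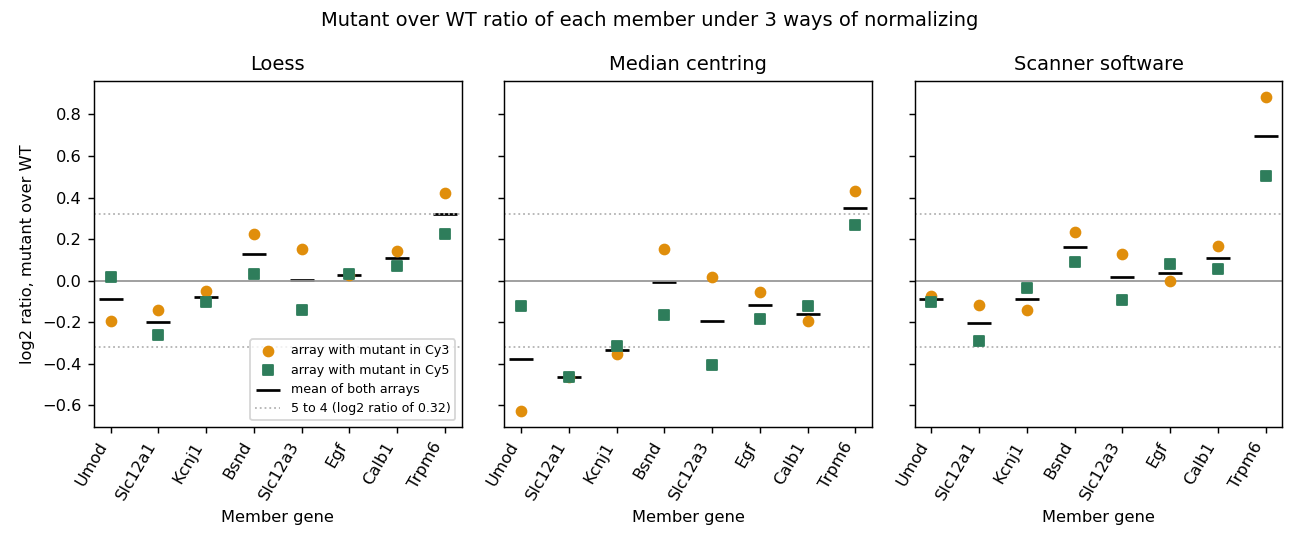
Log2 ratio of mutant over WT (vertical axis) of each member on the Cy3 array (orange circles) and the Cy5 array (green squares), with the mean as a bar and the ratio of 5 to 4 as dotted lines, after loess, after median centring and from the scanner software. Slc12a1 and Kcnj1 lie below 0 and Trpm6 above 0 on both arrays in every panel, and Umod, Slc12a1, Kcnj1 and Calb1 are shifted down under median centring.

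Of 50 other genes of the thick limb, macula densa and distal nephron, 46 were measured, Nos1 was not well above background, and Klhl3, Tmem52b and Atp2b4 had no probe under these names. None reached 2 to 1 on both arrays. At 5 to 4 on both arrays there were 3 of 46 (6.52%), all lower in mutant RNA, beside 4.78% of all measured genes. By direction, 17 (37.0%) were higher and 20 (43.5%) lower on both arrays, beside 30.8% and 37.9% of all measured genes. The median log2 ratio was 0.01, beside -0.01 over all measured genes. By its median and its count at 5 to 4 the list was close to the background of all genes. Its shares in both directions were somewhat above that background.

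The 3 genes past 5 to 4 were Ppp1r1a, Hsd11b2 and Fxyd2. Ppp1r1a, an inhibitor of protein phosphatase 1, had log2 ratios of -0.63 and -0.83 (mean -0.73), with signals of 8144 in mutant and 13450 in WT RNA. Hsd11b2, whose enzyme inactivates glucocorticoids in aldosterone-responsive cells and is also a gene of the collecting duct, had -0.57 and -0.84 (mean -0.70), with signals of 343.2 and 590.7. Of the 8 collecting duct markers 2 were lower in mutant signal, and their log2 ratios ran from -1.26 to 0.60 with a median of 0.17. Their part in this value was not tested. Fxyd2, the gamma subunit that modulates the sodium pump, had -0.34 and -0.36 (mean -0.35), with signals of 30920 and 39540. Its mean was -0.62 with median centring. Esrrg, an orphan nuclear receptor, had a mean as low as that of Fxyd2, but its arrays stood at -0.43 and -0.28 (mean -0.35), with signals of 1730 and 2265, so it was not counted. These 4 were lower in mutant RNA on each array under loess and lower on average under median centring.

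Toward the other end of this list stood Sorl1, a sorting receptor, with log2 ratios of 0.40 and 0.24 (mean 0.32). Trpv5, the calcium channel of the late distal convoluted and connecting tubule, had 0.33 and 0.20 (mean 0.26). Claudins 16 and 19 form the paracellular path for calcium and magnesium in the thick limb. Cldn16 had log2 ratios of 0.10 and -0.01 (mean 0.05) and Cldn19 0.39 and 0.01 (mean 0.20), so neither was clearly apart from 0 on the Cy5 array. Kcnj10, the basolateral potassium channel of the distal convoluted tubule, had -0.13 and -0.18 (mean -0.16). Pvalb, encoding parvalbumin of the early distal convoluted tubule, had 0.15 and 0.23 (mean 0.19) on a dim probe with signals of 61.6 and 45.5.

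**Figure D5:**
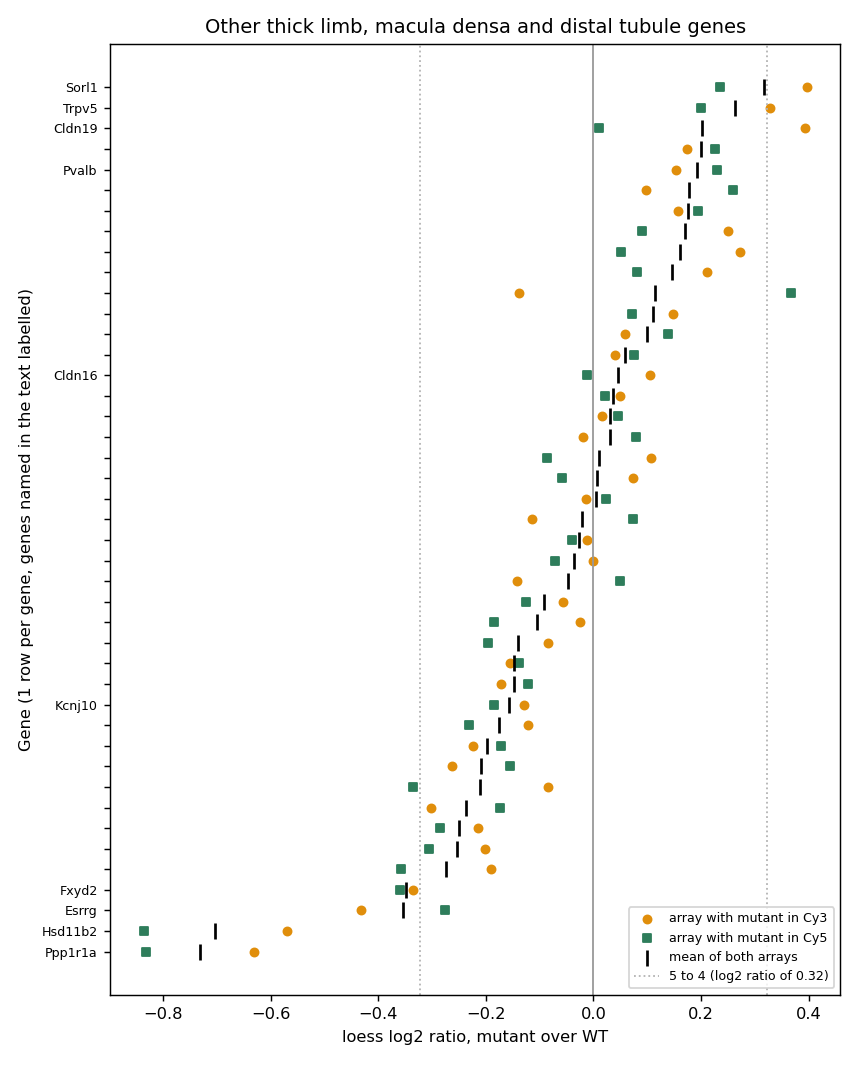
Loess log2 ratio of mutant over WT (horizontal axis) of 43 of the 46 other measured genes, ordered by mean and labelled where the text names them, with the Cy3 array as orange circles, the Cy5 array as green squares, the mean as a bar and the ratio of 5 to 4 as dotted lines. Most genes lie between the dotted lines, and Ppp1r1a (-0.73) and Hsd11b2 (-0.70) lie apart at the bottom.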

How the data were processed

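Gene expression was measured on 2 Agilent 2-colour arrays of PND3 RNA labelled as pancreas, 1 pool of 2 pups per genotype, with dyes exchanged. Per the file headers, the deposited scanner files hold spot and background intensities, processed signals (background-subtracted and dye-normalized by the scanner software) and log10 ratios of Cy5 over Cy3. In the deposited value table both columns are log2 ratios with mutant RNA as numerator. Scale and direction were read from a comparison of both columns with the scanner's ratios (r = 0.9996 and 0.9997, median 0). Agilent Feature Extraction had version 8.1 per the submitters' processing notes and 9.1.3.1, with protocol GE2-v5_91_0806, per the file headers.

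In R 4.3.3 with limma 3.58.1, background was corrected by normexp (offset 50), a loess curve (controls at weight 0) was taken from the ratios of each array, and signs were turned to mutant over WT. Outlier spots were left out, spots of a probe were averaged, and a gene was read from its brightest measured probe. A probe was measured where each array had it well above background in the same genotype. Of 41174 probes, 22951 took a RefSeq symbol through their accession and the remainder the name in the scanner file. A gene was called by its fold on both arrays. The computation of ratios was tested on simulated data. The number of arrays limits the precision.

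The members and lists were chosen with earlier results of these data known. All members were named. Of the other 50 genes, the 4 highest and 4 lowest ratios and 7 fixed genes, among them Cldn16, Cldn19, Kcnj10, Fxyd2 and Pvalb, were to be named, and of each marker list the 2 brightest. Some genes under this rule are not reported here. Sequences are from the scanner files. Alternatives changed the normalization, background correction, offset, filter, probe rule and arrays used.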

Additional observations from a re-analysis of the deposited data

How the results depend on the processing

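No member reached 2 to 1 on both arrays under any of the 14 alternatives run for that count. Among the comparison genes 0.139% to 0.884% did so, depending on the alternative, so a count of 0 of 8 is near the background throughout. Alternatives that changed only the comparison genes, or that returned the main ratio of every member, could not alter the members' count. At 5 to 4 the count of 0 of 8 became 1 with median centring (Slc12a1; 10.4% of all genes), 4 with no normalization (35.2% of all genes), and 1 (Trpm6) with a normexp offset of 0 (7.89%), with the scanner software's processed signals (10.2%), with those signals median-centred (10.7%) and with the value table (10.2%). The members' median of 0.02 became -0.18 with median centring and -0.47 with no normalization, where the median of all genes was -0.11 and -0.41. Members lower on both arrays numbered 2 with loess (37.9% of all genes), 5 with median centring (54.4%) and 7 with no normalization (89.1%). They numbered 3 with a normexp offset of 0 (37.5%), with the processed signals (38.7%), with those signals median-centred (47.9%) and with the value table (38.7%). The 3 calls among the 46 other genes became 9 with median centring, 21 with no normalization and 6 with the processed signals median-centred, beside the same shares of all genes (10.4%, 35.2% and 10.7%). On the Cy5 array alone the median was 0.024 and the 5 to 4 count 0 (8.89% of all genes). The count lower was 3 (55.1%) and the other genes' count 7. On the Cy3 array alone the median was 0.085 and the 5 to 4 count 1 (12% of all genes). The count lower was 3 (51.9%) and the other genes' count 8. Each count of the other genes stands beside the same 5 to 4 share of all genes. By mean over the arrays used, Slc12a1 and Kcnj1 were below 0, and Trpm6 above 0, in all 12 alternatives. With no normalization Trpm6 was 0.26 on the Cy3 array and -0.16 on the Cy5 array. Averaging all measured probes, keeping outlier spots and dropping the filter on dim probes returned the main ratio of every member. The value table returned the scanner software's ratios, so these alternatives are not separate checks of direction. Umod was below 0 in 11 of 12, Bsnd above 0 in 10, Egf in 9 and Slc12a3 in 8 of 12, and Calb1 in 12 of 14. Splitting the Calb1 spots, the share among genes at least as bright as the second dimmest member, and repeating the alternatives on the other genes were chosen after seeing the data. No paired analysis was possible because PND3 has 1 pool per genotype and the E15.5 samples, which share numbers, enter no comparison here. For these shifts the cause was not tested. Signal over background limits Trpm6, and 1 pool per genotype limits every value.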
